A study of Mus musculus with 53 samples.

Results

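Dietary reversal (DR) in the type 2 diabetes (T2D) model was examined by comparing the sciatic nerve (SCN) transcriptomes of 6 HFD-STZ-DR mice with those of 8 HFD-STZ mice, both at 24 weeks of age. These 14 samples are all samples of the series with these labels, out of 53 in 8 groups. All were male C57BL/6J mice, and both groups shared a high-fat diet (HFD, 60% of kcal from fat) from 5 weeks of age and streptozotocin (STZ, a toxin of insulin-producing beta cells) from 12 weeks, with a first dose of 75 mg/kg and a second of 50 mg/kg 3 days later. The HFD-STZ-DR mice were returned to the control diet at 16 weeks for 8 weeks, whereas the HFD-STZ mice stayed on HFD. The control diet group (SD, 8 samples at 24 weeks), the HFD-STZ mice at 16 weeks (5 samples, the age at which DR began) and the prediabetic model, which received HFD without STZ (7 HFD-DR and 7 HFD samples at 24 weeks), are used for reference. Genes were included when their mean log2 value over the 14 samples reached 3.32 (10 before the logarithm) and when no sample held a value above 22. This left 17862 of 49568 genes.

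The SCN holds axons of motor and sensory neurons, whose cell bodies lie in the spinal cord and dorsal root ganglia, together with myelinating and non-myelinating Schwann cells, fibroblasts, perineurial cells, vessels and macrophages. Its outer sheath, the epineurium, contains adipocytes, and muscle lies against the nerve in the thigh. Adipocytes store fatty acids as triglycerides (TG), which are built by acyltransferases, packed in lipid droplets and released by lipases, and their transcripts for leptin (Lep) and adiponectin (Adipoq) respond to feeding and fat mass. In a bulk sample, fewer cells of a type and less RNA per cell cannot be told apart.

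The values were deposited as log2 values, the sources used here do not name their normalization, and the reads behind each value are unknown, so errors come from the spread between samples alone. The labels do not state that each sample is a separate animal, so p-values measure the spread between these samples. The myelin basic protein gene Mbp lay between 19.28 and 20.10 in all 14 samples. A pair of libraries stood apart. Against the other 13 samples, HFD-STZ replicate 7 had a median correlation of 0.94 and HFD-STZ-DR replicate 4 one of 0.95, whereas the other 12 ranged from 0.98 to 0.988. HFD-STZ replicate 7 held the highest value of all 53 samples for 16 of 16 sensory neuron genes. In that library the neuronal transcription factor Isl1 was at 11.3, compared with 3.00 to 6.11 in the other 13 samples, and 23 of the 25 genes dropped for a value above 22 were above it there. HFD-STZ-DR replicate 4 was the highest of the 14 for skeletal muscle markers, whose mean log2 value was 15.2 in it. Many results are given with and without these libraries, and the counts of some gene lists with all 14 samples only.

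DR was followed by lower expression of a small set of genes, and no gene passed the test in the other direction. Limma's moderated test with Benjamini-Hochberg adjustment called 15 of 17862 genes (0.084%) as differentially expressed (DEGs, adjusted p under 0.05), all 15 lower in HFD-STZ-DR, and 13 of the 15 were lower by more than 1 on the log2 scale. The largest fall was that of the choline transporter gene Slc5a7, by 4.32 on the log2 scale. At an unadjusted p under 0.05 the split was 806 genes lower (4.51%) and 351 higher (1.97%), so that 69.7% of these genes were lower. This share was 51.0% after each sample was centred on its median (628 lower and 603 higher), while 13 of the 15 DEGs kept their call. In 12 of the 15 DEGs every HFD-STZ-DR sample lay below every HFD-STZ sample, a separation found for 33 of all genes tested (0.185%) in this direction and for 8 (0.0448%) in the other. This separation and the calls rest on the same values.

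**Figure D1:**
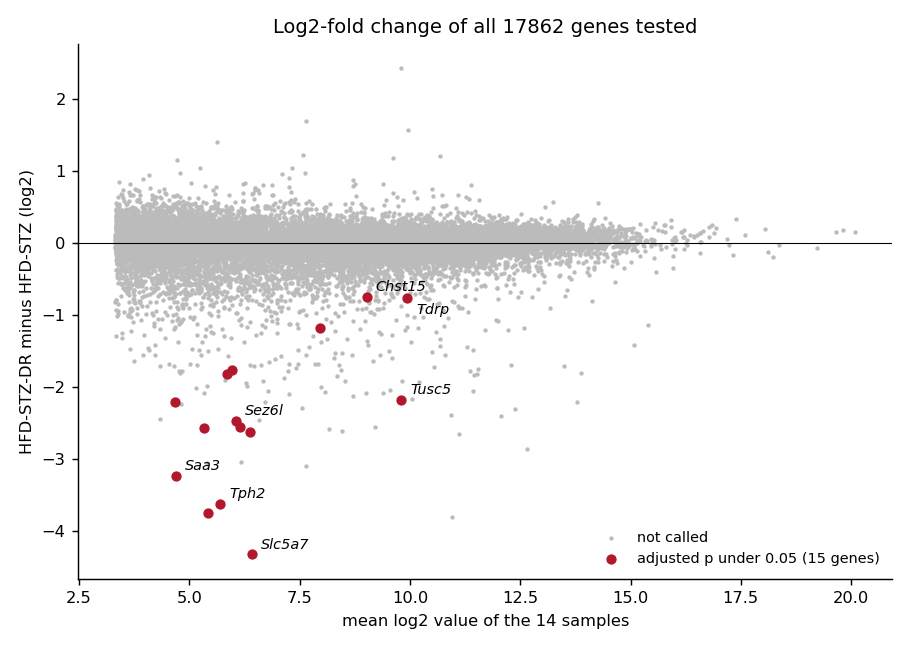
Log2-fold change between HFD-STZ-DR and HFD-STZ (vertical axis, difference of group means of the deposited log2 values) against the mean log2 value of the 14 samples (horizontal axis) for the 17862 genes tested, with the 15 DEGs as large red points. All 15 lie below 0, from -0.75 for Chst15 to -4.32 for Slc5a7, and 13 of them lie below -1.

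The number of DEGs depended on single libraries. It was 167 without HFD-STZ replicate 6, 117 without HFD-STZ replicate 7, 8 without HFD-STZ replicate 4, 2 without HFD-STZ replicate 1 and 1 without any of HFD-STZ replicates 2, 3, 5 and 8. It was 6 without HFD-STZ-DR replicate 4, 2 without replicate 2, 1 without any of replicates 1, 3 and 6, and 0 without replicate 5, where the smallest adjusted p was 0.0501 and 1018 genes had an unadjusted p under 0.05. With both libraries that stood apart left out, 145 genes were called, 141 lower (0.793%) and 4 higher, and the 15 DEGs were among them. The unadjusted shares were then 7.69% lower and 5.06% higher. The library numbers in the sample titles form 8 runs, of which 6 hold both groups. With the run as a block, 0 genes were called in limma (smallest adjusted p 0.294, 780 genes at an unadjusted p under 0.05), and the 15 DEGs had log2-fold changes from -4.14 to -0.71 within runs, all 15 lower.

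Sequences at transcript starts of the 4 DEGs with the largest falls are shown, since these genes carry the largest differences. Each is a stretch of 300 bases that ends shortly after an annotated transcript start, written 5′ to 3′ along the gene's strand, from RefSeq on GRCm38.p6. They cover chr17:54298985-54299284 (minus strand) for Slc5a7, chr15:11966812-11967111 (plus strand) for the long noncoding RNA 1700047G03Rik, chr10:115184973-115185272 (minus strand) for Tph2, and chr7:46715627-46715926 (minus strand) for Saa3. The start used for 1700047G03Rik lies inside the span that GENCODE gives this gene. Capitals mark matches to the motifs searched.
Slc5a7: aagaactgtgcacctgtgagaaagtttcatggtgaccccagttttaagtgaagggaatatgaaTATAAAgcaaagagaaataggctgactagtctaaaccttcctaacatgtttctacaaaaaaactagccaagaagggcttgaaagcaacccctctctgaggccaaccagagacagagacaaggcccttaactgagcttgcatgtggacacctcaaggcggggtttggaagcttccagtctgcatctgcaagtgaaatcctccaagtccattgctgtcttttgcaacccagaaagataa
1700047G03Rik: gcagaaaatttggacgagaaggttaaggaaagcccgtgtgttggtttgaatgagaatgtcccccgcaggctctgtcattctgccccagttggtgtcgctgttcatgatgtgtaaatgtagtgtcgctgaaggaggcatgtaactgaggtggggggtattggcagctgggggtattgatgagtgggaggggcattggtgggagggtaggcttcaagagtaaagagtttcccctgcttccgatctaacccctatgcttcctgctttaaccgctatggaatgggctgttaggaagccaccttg
Tph2: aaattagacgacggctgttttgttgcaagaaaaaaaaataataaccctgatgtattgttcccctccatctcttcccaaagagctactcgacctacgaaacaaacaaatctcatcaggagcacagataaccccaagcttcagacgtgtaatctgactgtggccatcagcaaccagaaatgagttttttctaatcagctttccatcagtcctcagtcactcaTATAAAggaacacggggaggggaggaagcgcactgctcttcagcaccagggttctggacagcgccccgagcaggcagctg
Saa3: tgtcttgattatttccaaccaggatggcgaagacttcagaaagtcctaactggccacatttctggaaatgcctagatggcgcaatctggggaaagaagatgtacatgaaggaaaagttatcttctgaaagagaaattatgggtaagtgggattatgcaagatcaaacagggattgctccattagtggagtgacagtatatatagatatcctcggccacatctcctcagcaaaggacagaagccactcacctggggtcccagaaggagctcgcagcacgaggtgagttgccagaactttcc
The motifs were the E-box CACGTG and the D-box TTATGTAA of clock-controlled genes, the nuclear receptor half-site AGGTCA and the TATA box TATAAA, searched on both strands. The table used held 11 of the 15 DEGs, with 17 starts. TATAAA occurred in 3 of the 17 (Slc5a7, Tph2 and Aldh1a7), against 13.6% of the 32851 promoters in the table. The search took no account of distance from the start, so a match is not shown to be a working TATA box. AGGTCA occurred in 4 of the 17, belonging to Ffar2 and C6, against 16.3% of all promoters. Stretches of Ffar2 overlap and share a match, so the 4 are not 4 separate sites. CACGTG occurred in 1 of the 17 against 7.15%, and TTATGTAA in 0 of the 17 against 0.938%.

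The 15 DEGs are described by the known roles of their products, an order chosen after they were called and with no test of a shared role. Slc5a7 encodes the high-affinity transporter by which cholinergic terminals take up choline and lies at chr17:54273590-54299034 (GRCm38, minus strand). Its log2 values were 3.26, 3.90 and 4.83 (lowest, median and highest) in HFD-STZ-DR and 5.12, 8.60 and 9.65 in HFD-STZ. The groups did not overlap, and the log2-fold change was -4.32 ± 0.58 (SE; limma, adjusted p = 0.018; exact permutation p = 0.000666). The lowest HFD-STZ value, 5.12 in replicate 6, was followed by 7.50 in replicate 7. Tph2 encodes the neuronal tryptophan hydroxylase, the rate-limiting enzyme of serotonin synthesis in neurons, and lies at chr10:115078641-115185022 on the minus strand. It ranged from 2.88 to 5.42 in HFD-STZ-DR (median 3.33) and from 4.78 to 8.91 in HFD-STZ (median 7.38), a log2-fold change of -3.62 ± 0.63 (limma, adjusted p = 0.0486). The groups overlapped through HFD-STZ-DR replicate 4, at 5.42, and HFD-STZ replicate 6, at 4.78. The remaining 5 HFD-STZ-DR samples were at 3.73 or lower.

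Sez6l, a transmembrane protein of the seizure-related 6 family best known from neurons, had the smallest p-value. It ranged from 3.68 to 5.13 in HFD-STZ-DR (median 4.82) and from 5.80 to 7.94 in HFD-STZ (median 7.19), with a log2-fold change of -2.47 ± 0.30 (limma, adjusted p = 0.00986). All 8 HFD-STZ samples lay above all 6 HFD-STZ-DR samples, and the exact permutation p of 0.000333 is the smallest that the 3003 assignments of 14 samples allow. This p rests on the values that chose Sez6l and is no separate support. Its call was lost in 1 of the 14 fits that left out a sample, whereas that of Slc5a7 was lost in 8 and those of the other 13 DEGs in 10 to 12. Kcnj14, which encodes an inwardly rectifying potassium channel, ranged from 3.46 to 4.45 after DR and from 4.61 to 7.71 without it, and its log2-fold change was -2.57 ± 0.40 (limma, adjusted p = 0.0409). In stretches of 100 bases, 20.1% of its transcript recurred in the transcript of Gm5522, so that its reads could be split between the genes. Of the 8 sensory neuron genes that passed the filter, 0 had an unadjusted p under 0.05 in limma's test, and the cell type that carried the 4 transcripts was not tested.

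Saa3 and C6 encode secreted defence proteins. Saa3, a serum amyloid A made outside the liver by adipocytes and macrophages, was between 2.51 and 3.25 in HFD-STZ-DR (median 2.81) and between 3.66 and 7.55 in HFD-STZ (median 6.55). Its log2-fold change was -3.23 ± 0.55 (limma, adjusted p = 0.0486), with no overlap between the groups. C6, a component of the terminal complement complex, spanned 4.25 to 5.33 after DR (median 4.60) and 5.46 to 8.25 without DR (median 7.72). It fell by 2.55 ± 0.44 on the log2 scale (limma, adjusted p = 0.0486). All 6 HFD-STZ-DR values of Saa3 lay under 3.32, the minimum that the mean of the 14 samples had to reach.

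Tusc5, Klf14 and Ffar2 are known from adipose tissue. Tusc5 (Trarg1 in current annotation) encodes a membrane protein of adipocytes that takes part in glucose transporter traffic. Its values ran from 7.64 to 9.24 in HFD-STZ-DR (median 8.71) and from 9.03 to 12.15 in HFD-STZ (median 10.74), and it fell by 2.17 ± 0.38 on the log2 scale (limma, adjusted p = 0.0486). HFD-STZ replicate 6, at 9.03, lay within the range of HFD-STZ-DR. Klf14, a Krüppel-like transcription factor linked to adipose gene regulation, fell from a median of 5.69 (4.34 to 6.77) to one of 3.40 (3.17 to 3.65), a change of -2.21 ± 0.34 (limma, adjusted p = 0.0409). Ffar2, a receptor for short-chain fatty acids on adipocytes and leukocytes, changed by -2.62 ± 0.45 (limma, adjusted p = 0.0486), from 6.00 to 8.82 in HFD-STZ and 4.02 to 5.78 in HFD-STZ-DR. The groups did not overlap for Klf14 or Ffar2.

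Tfr2, transferrin receptor 2, which senses iron-loaded transferrin, fell by 1.77 ± 0.30, from a median of 6.69 in HFD-STZ (5.53 to 7.70) to 5.07 in HFD-STZ-DR (4.53 to 5.12). Trhde, an ectoenzyme that degrades thyrotropin-releasing hormone, fell by 1.82 ± 0.31 (3.83 to 5.92 after DR and 5.88 to 7.23 without). Its groups overlapped by the highest HFD-STZ-DR sample, replicate 4, alone. Aldh1a7, an aldehyde dehydrogenase, fell by 1.17 ± 0.20, with 7.07 to 7.64 after DR and 7.70 to 9.06 without. The smallest falls were those of Tdrp, a gene named for testis development, and of Chst15, a sulfotransferase of chondroitin sulfate. Tdrp was at 9.39 to 9.60 after DR and 9.75 to 10.56 without, and fell by 0.76 ± 0.13. Chst15 was at 8.32 to 8.78 and 8.91 to 9.72, and fell by 0.75 ± 0.13, and 6.46% of its transcript recurred in Gm10584. Each of these 5 genes had an adjusted p of 0.0486 in limma's test. The long noncoding RNA 1700047G03Rik, at chr15:11964276-11970086 on the plus strand, fell from a median of 7.39 (4.36 to 8.49) to 3.25 (2.74 to 4.10), a change of -3.74 ± 0.57 (limma, adjusted p = 0.0409) with no overlap. Its HFD-STZ-DR mean of 3.29 was under the minimum that the filter set for the mean of both groups together.

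**Figure D2:**
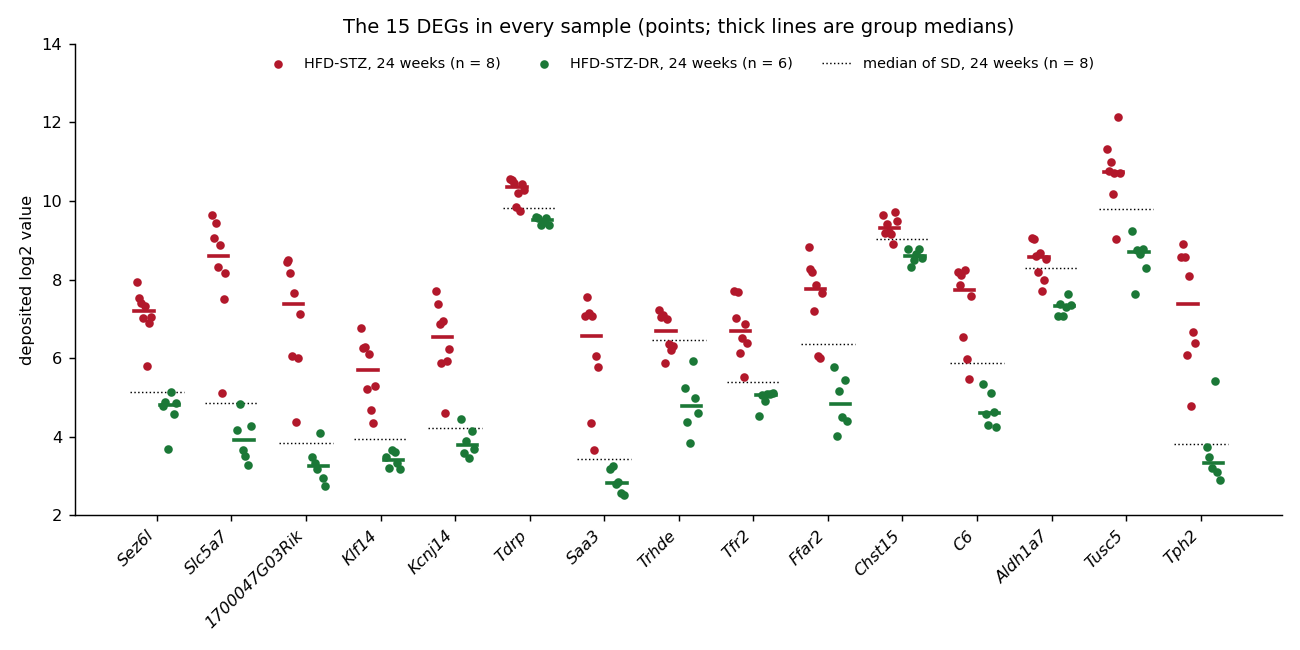
Deposited log2 values (vertical axis) of the 15 DEGs in each HFD-STZ sample (red, n = 8) and HFD-STZ-DR sample (green, n = 6) at 24 weeks, with group medians as thick lines and the median of 8 SD samples at 24 weeks as a dotted line. The groups are separate for 12 genes and overlap for Trhde, Tusc5 and Tph2, and the spread is wider in HFD-STZ than in HFD-STZ-DR for Slc5a7, 1700047G03Rik and Saa3.

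The SD was larger in HFD-STZ than in HFD-STZ-DR for 14 of these 15 genes. The SD of Slc5a7 was 1.46 in HFD-STZ and 0.58 in HFD-STZ-DR, that of Saa3 was 1.42 and 0.30, and that of Tph2 was 1.49 and 0.93. HFD-STZ replicate 6 held the lowest HFD-STZ value for 11 of the 15 DEGs, and replicate 1 the highest for 9.

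Just outside the threshold were Angptl4, a secreted inhibitor of lipoprotein lipase (-0.90 ± 0.16, limma adjusted p = 0.0503), the adipokine leptin gene Lep (-3.80 ± 0.69, adjusted p = 0.0591) and Hp, which encodes haptoglobin (-2.87 ± 0.53, adjusted p = 0.0603). Lep ranged from 6.34 to 10.18 in HFD-STZ-DR (median 8.93) and from 9.82 to 14.19 in HFD-STZ (median 12.98). The groups overlapped, with 2 HFD-STZ-DR samples above the lowest HFD-STZ sample.

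Among genes with higher values after DR, the smallest p-values belonged to Sgk1, Fam107a and Per1, none of which passed the adjusted test. Sgk1, a kinase of the serum and glucocorticoid response, ranged from 13.32 to 13.98 in HFD-STZ-DR and from 12.70 to 13.24 in HFD-STZ, without overlap, and differed by 0.57 ± 0.12 (limma, adjusted p = 0.100). Per1, a repressor in the core clock loop, ranged from 10.82 to 11.18 after DR and from 9.87 to 10.75 without, also without overlap, with a difference of 0.52 ± 0.12 (adjusted p = 0.155). Fam107a, an actin-associated stress-response gene, differed by 0.64 ± 0.14 (adjusted p = 0.103) and its groups overlapped. Tmem201, RP23-128C4.4, Fer1l5, Gm26710 and Padi2 followed, with differences from 0.24 to 0.71 and adjusted p-values from 0.174 to 0.260. Without both libraries that stood apart, Fam107a (0.66, adjusted p = 0.0401), Per1 (0.40, adjusted p = 0.0412), Ston2 (0.32, adjusted p = 0.0485) and Zfp334 (0.30, adjusted p = 0.0419) were the 4 genes called higher.

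In SD mice of the same age, which had received neither HFD nor STZ, the 15 DEGs were closer to their levels after DR than to those in HFD-STZ for 11 genes, by group means. The HFD-STZ-DR mean was below the SD mean for all 15. For Sez6l, the SD median was 5.14, compared with 4.82 after DR and 7.19 in HFD-STZ. The 4 genes whose SD mean was closer to HFD-STZ were Trhde, Ffar2, Chst15 and Aldh1a7. Chst15 had an SD median of 9.04, and the SD mean was 0.15 below the HFD-STZ mean and 0.59 above the HFD-STZ-DR mean. At 16 weeks, when DR began, HFD-STZ mice had means above the later HFD-STZ-DR means for all 15 genes. The gap was 1.89 for Slc5a7, whose median was 5.97 in these 5 samples, and 0.033 for Tfr2. These reference values share the HFD-STZ-DR samples and are given as a description.

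The prediabetic model offers separate samples for the same dietary change. All 15 DEGs were lower in HFD-DR than in HFD, compared with 50.6% of the 18475 genes tested there, and 13 of 15 were lower with an unadjusted p under 0.05, compared with 4.57% of genes. Tph2 alone had an adjusted p under 0.05 in that comparison (-4.52 ± 0.61, limma, adjusted p = 0.0280). Saa3 changed by -3.25 ± 0.50 in the prediabetic model and by -3.23 ± 0.55 in the T2D one, and Kcnj14 by -2.43 ± 0.53 and -2.57 ± 0.40. Tdrp (-0.31 ± 0.20) and Chst15 (-0.26 ± 0.24) were the members that did not reach an unadjusted p of 0.05 there. The median change of the 15 was -1.71 without STZ and -2.47 with STZ, the latter being the comparison that chose them. Whether DR acted differently in the models was tested as an interaction over the 28 samples. Limma called 0 of 18161 genes, with 310 (1.71%) at an unadjusted p under 0.05, and 1 of the 15 DEGs, Klf14, was among these (-1.36 ± 0.54, unadjusted p = 0.018). For Sgk1 and Per1 the interaction was 0.61 (unadjusted p = 0.0076) and 0.62 (unadjusted p = 0.0079), with differences of -0.044 and -0.10 in the prediabetic model. Neither passed the adjusted test. Klf14, Sgk1 and Per1 were named for their changes in the T2D model, which enter the interaction. Their interaction p-values are therefore no separate support.

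**Figure D3:**
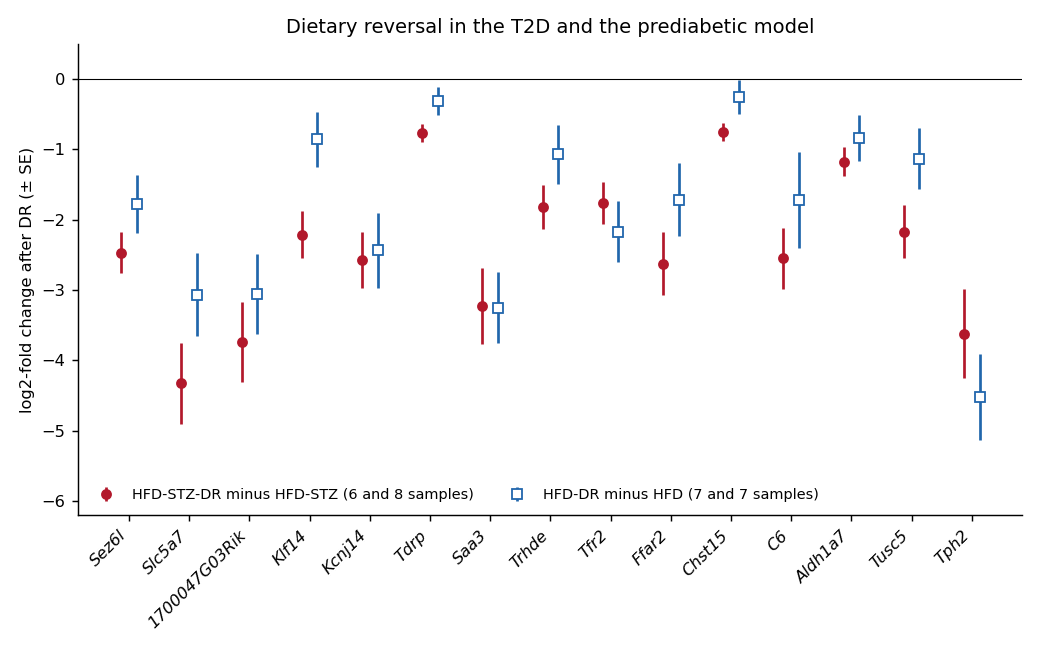
Log2-fold change after DR with its standard error (vertical axis) for the 15 DEGs in the T2D model (red circles, 6 HFD-STZ-DR and 8 HFD-STZ samples) and the prediabetic model (open blue squares, 7 HFD-DR and 7 HFD samples). All values are below 0 in both models, and the largest gap between the models is that of Klf14, at -2.21 and -0.85.

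Adipocyte genes were lower after DR as a group. Of 13 adipocyte markers, 12 were lower at an unadjusted p under 0.05 (4.51% of all genes), 0 were higher (1.97% of all genes), and 0 passed the adjusted test in limma, with a median log2-fold change of -1.75, compared with 0.0069 over all genes tested. Adipoq, the adiponectin gene, ranged from 8.97 to 12.15 in HFD-STZ-DR (median 11.38) and from 11.67 to 14.27 in HFD-STZ (median 13.86), a difference of -2.30 ± 0.52 (adjusted p = 0.129). Cidec, which enlarges lipid droplets, differed by -2.41 ± 0.55 and the fatty acid-binding protein gene Fabp4 by -2.20 ± 0.52. The mean log2 value of the 13 markers ran from 8.20 to 10.91 in HFD-STZ-DR (median 10.27), from 10.18 to 12.92 in HFD-STZ (median 12.33) and from 9.64 to 12.21 in SD. It was lower by 1.90 after DR (exact permutation p = 0.00766). Within the 6 library-number runs it was lower by 1.71 in the mean and lower in 5 of 6 (exact permutation p = 0.0625). Without both libraries that stood apart, 13 of 13 markers were lower at an unadjusted p under 0.05, beside 7.69% of all genes. Of these, Adipoq, Lep, Fabp4 and Acvr1c passed the adjusted test, beside 0.793% of all genes.

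The adipocyte markers and the DEGs were both lower after DR, and the part of adipocytes in these results was not tested. None of the 13 was at 0 in the samples, and the log2 of their summed linear values ran from 12.96 to 15.73 in HFD-STZ-DR and from 14.87 to 17.52 in HFD-STZ. HFD-STZ replicates 6 and 7 had adipocyte marker means of 10.26 and 10.18, within the range of HFD-STZ-DR. For 13 of the 15 DEGs both of these libraries were above every HFD-STZ-DR sample, and for Tusc5 and Tph2 replicate 6 was not. The 12 DEGs without overlap meet this by definition. Within HFD-STZ, replicate 6 held the lowest value for 11 of the 15 DEGs and replicate 7 for 3. The group mean of the adipocyte score was 11.39 in SD, 11.88 in HFD-STZ and 9.97 in HFD-STZ-DR. By group means, 11 of the 15 DEGs in SD were closer to HFD-STZ-DR than to HFD-STZ, and all 15 were higher in SD than in HFD-STZ-DR. The skeletal muscle marker mean was 0.72 higher after DR (exact permutation p = 0.629), and its direction rested on HFD-STZ-DR replicate 4, without which it was 0.45 lower.

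**Figure D4:**
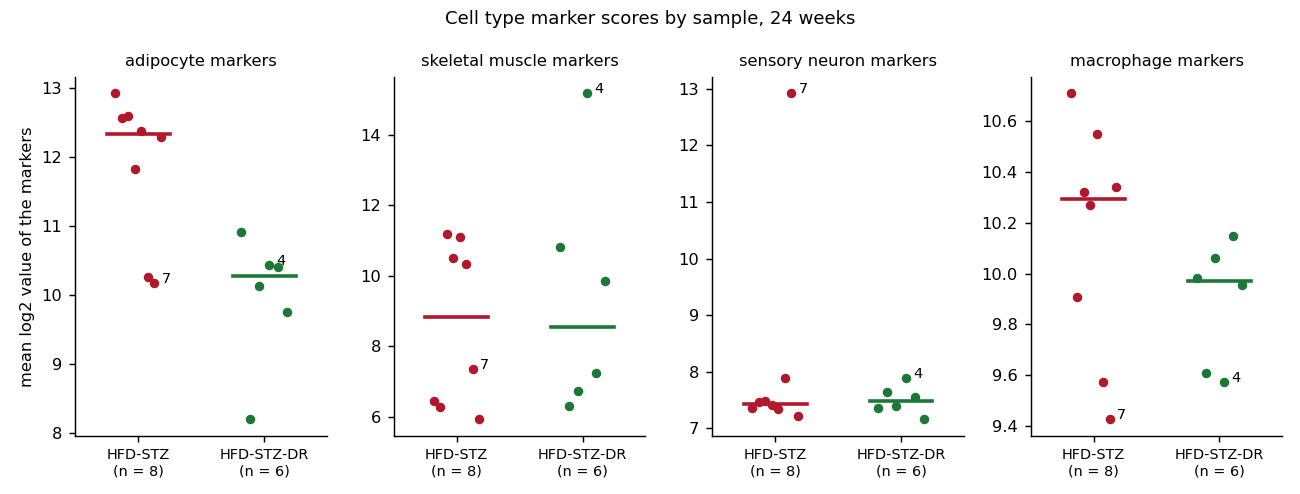
Mean log2 value (vertical axis) of 13 adipocyte, 17 skeletal muscle, 8 sensory neuron and 15 macrophage markers in each HFD-STZ (red, n = 8) and HFD-STZ-DR (green, n = 6) sample, with group medians as lines; HFD-STZ replicate 7 and HFD-STZ-DR replicate 4 are numbered. Adipocyte markers overlap between the groups through HFD-STZ replicates 6 and 7, at 10.26 and 10.18, while replicate 7 is alone at 12.92 for sensory neuron markers and HFD-STZ-DR replicate 4 at 15.17 for muscle markers.

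The genes of TG metabolism were described by list, and their counts at an unadjusted p under 0.05 stand beside 4.51% of all genes lower and 1.97% higher. In TG synthesis, 6 of 14 genes were lower at an unadjusted p under 0.05 and 0 higher (limma, 0 passed the adjusted test), with a median of -0.16. The 6 were Dgat1 and Dgat2, which catalyse the last step of TG synthesis, the monoacylglycerol acyltransferases Mogat1 and Mogat2, Agpat2, and Agpat9 (now Gpat3). Dgat2 ranged from 10.36 to 12.19 after DR and from 11.37 to 14.14 without, a difference of -1.70 ± 0.43 (adjusted p = 0.184). Mogat1 differed by -0.96 ± 0.21 (adjusted p = 0.128). Among 8 lipid droplet proteins, 6 were lower and 0 higher (median -0.51), including G0s2, an inhibitor of the TG lipase Pnpla2, at -0.88 ± 0.19, and Bscl2, the seipin gene, at -0.59 ± 0.14. Among 11 lipases and their regulators, 7 were lower and 0 higher (median -0.68). Pnpla3 differed by -1.92 ± 0.39 (adjusted p = 0.0902), the monoacylglycerol lipase gene Mgll by -0.68 ± 0.16, the lipoprotein lipase gene Lpl by -1.81 ± 0.65 (adjusted p = 0.519) and Lipf, a gastric lipase, by -2.44 ± 0.57 (adjusted p = 0.151). Lipf was near the filter after DR, with a median of 2.72, compared with 5.85 without. Without both libraries that stood apart, 2 TG synthesis genes, 3 droplet protein genes and 6 lipase list genes passed the adjusted test, all lower. In that fit 0.793% of all genes did so in this direction.

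Fatty acid uptake, synthesis and oxidation were described in the same way, beside 4.51% of all genes lower and 1.97% higher. For uptake and activation, 4 of 14 genes were lower and 0 higher at an unadjusted p under 0.05, and the fatty acid translocase gene Cd36 differed by -1.71 ± 0.48 (limma, adjusted p = 0.258). For synthesis and desaturation, 3 of 19 were lower and 1 higher. The stearoyl-CoA desaturase Scd1 differed by -1.14 ± 0.47 and its paralog Scd2 by 0.34 ± 0.15, and neither passed the adjusted test. Without both libraries that stood apart, 4 of the 19 were lower and 5 higher, beside 7.69% and 5.06% of all genes. For cholesterol synthesis and uptake, 0 of 22 were lower and 2 higher, and 19 of 22 were above 0 with a median of 0.18. Lss, which encodes lanosterol synthase and had the smaller p-value, differed by 0.28 ± 0.11 (limma, adjusted p = 0.631). Without both libraries that stood apart, 10 of the 22 were higher at an unadjusted p under 0.05 and 0 lower, against 5.06% of all genes higher. For fatty acid oxidation and ketone genes, 2 of 21 were lower and 0 higher, with a median of -0.16. Without both libraries that stood apart, 13 of the 21 were lower and 1 higher, beside 7.69% and 5.06% of all genes, and Acads (-0.42, adjusted p = 0.0485) and Hadh (-0.31, adjusted p = 0.0345) passed the adjusted test.

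Phospholipid, choline and serotonin genes were counted against the same shares of all genes, 4.51% lower and 1.97% higher. Among 16 phospholipases A2 and lysophospholipid acyltransferases, 4 were lower and 0 higher at an unadjusted p under 0.05. Pla2g2e, a secreted phospholipase A2, ranged from 2.66 to 3.44 after DR and from 3.25 to 5.49 without, and differed by -1.55 ± 0.36 (limma, adjusted p = 0.134). Its HFD-STZ-DR mean of 3.06 was under the minimum that the filter set for the mean of both groups together. Lpgat1 differed by -1.21 ± 0.28 (adjusted p = 0.144). Of 12 genes of choline uptake and phosphatidylcholine synthesis, 2 were lower, Slc5a7 and the choline transporter-like gene Slc44a3 (-0.92 ± 0.30, adjusted p = 0.394), and Pcyt1a was higher (0.15 ± 0.06). Of 14 genes of serotonin synthesis, breakdown and receptors, Tph2 and the receptor gene Htr7 (-0.97 ± 0.33, adjusted p = 0.455) were lower and 0 higher.

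**Figure D5:**
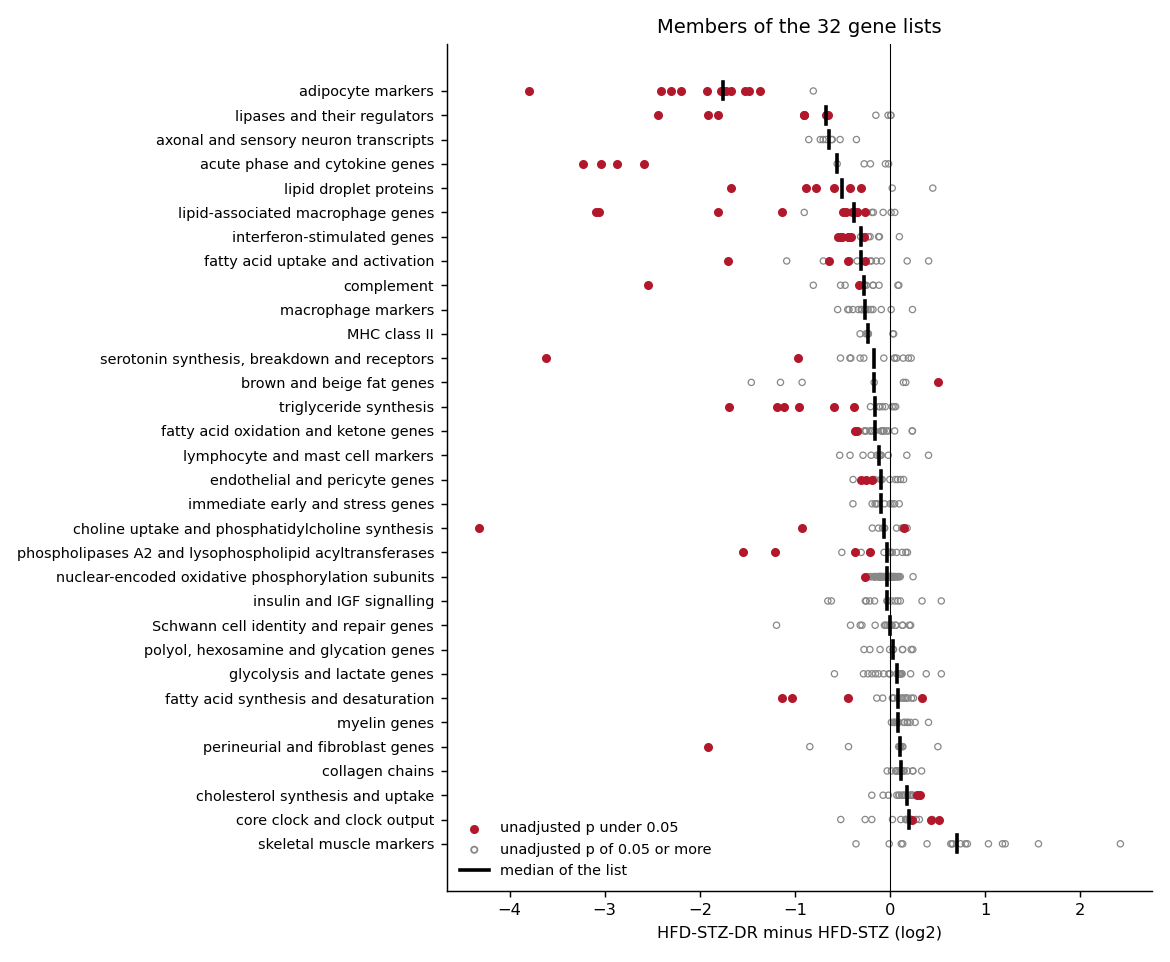
Log2-fold change between HFD-STZ-DR and HFD-STZ (horizontal axis) for each tested member of 32 gene lists (rows), filled red at an unadjusted p under 0.05 and open grey otherwise, with list medians as black bars. Adipocyte markers have the lowest median, at -1.75, and skeletal muscle markers the highest, at 0.70, the latter without any member under 0.05.

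Macrophage and defence genes are given beside the same 4.51% of all genes lower and 1.97% higher. Of 15 general macrophage markers, 0 had an unadjusted p under 0.05 in limma's test, and 13 were below 0, with a median of -0.27 (2 lower and a median of -0.27 without the libraries that stood apart). Of 16 genes of lipid-associated macrophages, 10 were lower and 0 higher, with a median of -0.38. The 10 include Lpl, also counted among the lipases, and Fabp5, also counted under fatty acid uptake. Itgad, an integrin subunit, ranged from 3.01 to 4.61 after DR and from 3.85 to 8.67 without, a difference of -3.06 ± 0.66 (adjusted p = 0.116). Mmp12, the macrophage elastase, ranged from 5.13 to 6.85 and from 6.44 to 11.21 (-3.09 ± 0.70, adjusted p = 0.134). The lysosomal and membrane genes of this list, such as Gpnmb (-0.50 ± 0.20) and Ctsd (-0.35 ± 0.11), differed by less. In the prediabetic model 11 of the 16 were lower at an unadjusted p under 0.05, beside 4.57% of all genes tested there. Of 9 acute phase and cytokine genes, 4 were lower and 0 higher, namely Saa3, Hp, the ubiquitin-like gene Ubd (-3.04 ± 0.60, adjusted p = 0.0891) and the orosomucoid gene Orm1 (-2.58 ± 0.51, adjusted p = 0.0901). Of 14 complement genes, C6 and C4b (-0.33 ± 0.13) were lower and 0 higher. Interferon-stimulated genes were lower for 7 of 15 and higher for 0, with a median of -0.31, led by Irf7 (-0.55 ± 0.14, adjusted p = 0.187), whereas 0 of the 15 had an unadjusted p under 0.05 in the prediabetic model. The difference between the models was tested for Irf7, at -0.53 (interaction, unadjusted p = 0.0678), and not for the list. Irf7 was named for its p-value in the T2D model, which enters this interaction. Without both libraries that stood apart, the shares were 7.69% of all genes lower and 5.06% higher. In that fit, 6 of the 16 lipid-associated macrophage genes and 5 of the 15 interferon-stimulated genes were lower, and 0 and 1 were higher. Of the 16, Lpl alone then passed the adjusted test (-2.55, limma, adjusted p = 0.0412). For MHC class II (7 genes, median -0.23) and for lymphocyte and mast cell markers (11 genes, median -0.11), 0 members had an unadjusted p under 0.05.

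Among genes of Schwann cells, axons, vessels and connective tissue, 0 passed the adjusted test in limma with all 14 samples, and counts at an unadjusted p under 0.05 stand beside 4.51% of all genes lower and 1.97% higher. All 15 myelin genes were above 0, with a median of 0.088, and 0 had an unadjusted p under 0.05 in limma's test. Mbp differed by 0.18 ± 0.18, and the largest difference was that of the myelin lipid-binding protein gene Pmp2, at 0.41 ± 0.19 (adjusted p = 0.771). Of 18 Schwann cell identity and repair genes, 0 had an unadjusted p under 0.05, with a median of 0.0020. Without the libraries that stood apart, the median was 0.097, and 1 of the 18 was lower and 0 higher. This was Bdnf (-1.15, limma, adjusted p = 0.0693). In that fit 3 of the 15 myelin genes were higher and 0 lower, beside 5.06% of all genes higher and 7.69% lower. The 8 sensory neuron genes tested had a median of -0.64, which was -0.028 without the libraries that stood apart, and 0 had an unadjusted p under 0.05. Among 13 endothelial and pericyte genes, 3 were lower and 0 higher at an unadjusted p under 0.05, with Tek, an angiopoietin receptor, at -0.31 ± 0.09 and Emcn at -0.25 ± 0.07. Among 10 perineurial and fibroblast genes, Dpt, a matrix protein gene, was lower (-1.92 ± 0.53, adjusted p = 0.242) and 0 were higher. Without the libraries that stood apart, 6 of the 13 endothelial and pericyte genes were lower at an unadjusted p under 0.05 and 0 higher. Of the 10 perineurial and fibroblast genes, 3 were then lower and 0 higher, beside 7.69% and 5.06% of all genes. In that fit Dpt (-2.33, limma, adjusted p = 0.0378) and the pericyte gene Rgs5 (-0.47, adjusted p = 0.0276) passed the adjusted test. Collagen chains (16 genes) had a median of 0.12, and of 0.021 without the libraries that stood apart. For skeletal muscle markers (16 genes) the median was 0.70, and -0.57 without those libraries. Both lists had 0 members under 0.05 in either fit.

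Clock and energy genes were also examined. Of 19 core clock and clock output genes, Per1, Ciart (0.43 ± 0.15, limma adjusted p = 0.520) and Nr1d2 (0.23 ± 0.09, adjusted p = 0.584) were higher at an unadjusted p under 0.05 and 0 lower, with a median of 0.20, beside 1.97% of all genes higher. The time of day of tissue collection is not given in the sources used here. In the prediabetic model, 0 of the 19 had an unadjusted p under 0.05. Of 7 brown and beige fat genes, the coactivator gene Ppargc1a was higher with all 14 samples (0.51 ± 0.18, limma, adjusted p = 0.473) and 0 were lower. Ucp1 was not among the genes under 0.05 there, and the median of the list was -0.17. Without the libraries that stood apart the median was -0.51. In that fit 2 of the 7 were lower and 1 higher at an unadjusted p under 0.05, beside 7.69% and 5.06% of all genes. Of 76 nuclear-encoded subunits of oxidative phosphorylation, 1 was lower, Cox8a (-0.27 ± 0.11), and 0 higher, with a median of -0.033 and 51 below 0. After each sample was centred on its median, 31 were below 0, as were 6434 of all 17862 genes, and the median was 0.016. Without the libraries that stood apart, and without centring, 73 of the 76 were below 0, as were 8285 of 17736 of all genes. In that fit 9 of the 76 were lower at an unadjusted p under 0.05, beside 7.69% of all genes. Glycolysis and lactate genes (19), insulin and IGF signalling genes (14), polyol, hexosamine and glycation genes (10) and immediate early genes (10) had 0 members under 0.05, with medians from -0.094 to 0.071. Without the libraries that stood apart, 4 glycolysis and lactate genes were lower and 1 higher, and 3 insulin and IGF signalling genes lower and 0 higher. In that fit 1 polyol list gene was lower and 1 higher, and 0 immediate early genes either way. These counts stand beside 7.69% of all genes lower and 5.06% higher. Ldha, a lactate dehydrogenase gene, then passed the adjusted test in limma (-0.53, adjusted p = 0.0412).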

How the data were processed

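RNA from SCN was sequenced, and the authors deposited 1 value per gene and sample on a log2 scale. The submitters' processing notes name HISAT2, featureCounts, DESeq2 and the mouse build mm10. The normalization behind the deposited log2 values is not given in the sources used here. The values are not counts, so a model of read counts was not used, and no counting precision can be given. The lowest value was -2.39 and the highest 20.96, leaving aside 25 genes with a value above 22. The sources differ on RNA extraction and library kit.

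The 6 HFD-STZ-DR and 8 HFD-STZ samples were fitted alone, without covariates, with limma 3.58.1 in R 4.3.3 (variance prior with trend, Benjamini-Hochberg adjustment over all 17862 genes tested, threshold 0.05). Named genes were also tested with a 2-sided exact permutation test over 3003 assignments. For the DEGs these p-values use the values that chose them and are no separate support. On simulated data of this design, 38.0% of genes changed by 0.5 on the log2 scale, 75.5% of those changed by 1 and 100.0% of those changed by 2 or 4 were recovered, with 6 of 17516 unchanged genes called. Whether these rates hold for the 14 samples, which include libraries that stood apart, was not tested. No 2 of the 14 samples were identical (correlations 0.913 to 0.993).

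The genes named were all DEGs, the smallest p-values (15 lower, 8 higher), the leading 2 members of each of 32 lists, genes the study's text names and defining markers, and other list members were named after their values were seen. The members and lists were chosen with earlier results of these data known. Marker scores are mean log2 values of the markers. Genes were placed with GENCODE M21, and promoters came from RefSeq (GRCm38.p6). Tables were made with Python 3.11.15, numpy 2.4.6 and pandas 2.3.3, and figures with matplotlib 3.10.9. The alternatives were the low-value filter, all 8 groups in 1 fit, the library-number run, the variance prior, genes above 22, centring, and leaving out each sample. Leaving out the libraries that stood apart was added after seeing the data. Some results for single genes are not reported here.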

Additional observations from a re-analysis of the deposited data

Results flagged for a closer look

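In 34 groups of values tested for a sample far from the rest (the 15 DEGs and both marker scores in each group), 2 held one, and chance alone gives about 1 in 20. For Tfr2, HFD-STZ-DR replicate 1 was at 4.53, below the other 5 HFD-STZ-DR samples, which lay between 4.90 and 5.12. For Tph2, HFD-STZ-DR replicate 4 was at 5.42, above the other 5, which lay between 2.88 and 3.73. HFD-STZ replicate 7 held 23 genes with a log2 value above 22, which were left out of the tests. Among these were 8 of the 16 sensory neuron genes, for example Calca at 57.95, compared with 9.23 to 9.52 in the other 13 samples. Apart from the 25 genes with such a value, no gene exceeded 20.96 in any of the 53 samples, and the cause was not tested.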

How the results depend on the processing

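No paired analysis was possible because the labels carry no replicate numbers, and the runs of library numbers in the titles served as a block instead. The 15 DEGs became 1 with no filter on low values, 1 with a value of at least 3.32 in every sample, 47 with all 8 groups in 1 fit, 32 in that fit with the library-number run, 0 with the run as a block in the 14 samples, 5 with genes above 22 kept, 2 without the trend in the variance prior, 5 with robust empirical Bayes, and 145 without both libraries that stood apart. Leaving out each sample in turn gave 0 to 167 DEGs. Of the 15 DEGs, 12 were called in each fit of all 8 groups, and each kept its direction under every alternative. The causes were not tested. The interaction of DR with STZ called 0 genes in limma under each alternative run, with 310 to 1150 genes at an unadjusted p under 0.05. The adipocyte marker difference was -1.71 within library-number runs (p = 0.0625, exact permutation test over 64 assignments). The skeletal muscle marker difference turned to -0.448 without HFD-STZ-DR replicate 4 (1.32 without replicate 2, the highest) and -0.633 without both libraries that stood apart. Among 90 named genes, 3 turned in direction: Snap25 (0.0013 without both libraries), Ckm (-0.20 without both, -0.015 to 2.08 leaving out 1 sample) and Acta1 (-1.43 without both, -1.16 to 1.07 leaving out 1 sample). None of these 3 passed the test in either setting. Of 2149 values of named genes under the alternatives, 1847 kept their side of the threshold, 235 lost it and 56 passed it. Depth is unknown, so no counting precision can be given for low genes such as Saa3, Lipf, 1700047G03Rik and Pla2g2e.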

Other observations

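Sgk1, Fam107a and Per1, which led the genes with higher values after DR, are known glucocorticoid-responsive genes. A list of 15 such genes was therefore drawn up after these values had been seen, so it is described without a test. Apart from the 3 genes that prompted the list, 1 of its other 12 members was higher at an unadjusted p under 0.05 in limma's test and 0 were lower. Of all genes, 1.97% were higher and 4.51% lower at this threshold. The higher member was Tsc22d3, the glucocorticoid-induced leucine zipper gene, which ranged from 14.27 to 14.96 in HFD-STZ-DR and from 13.94 to 14.80 in HFD-STZ (0.35 ± 0.14, adjusted p = 0.648). Fkbp5, which encodes a chaperone of the glucocorticoid receptor, differed by -0.14 ± 0.21, Zbtb16 by -0.020 ± 0.33 and the metallothionein gene Mt1 by -0.12 ± 0.17. In the prediabetic model, Tsc22d3 differed by -0.48 between HFD-DR and HFD, and the interaction was 0.83 (unadjusted p = 0.0093, not past the adjusted test). Tsc22d3 was picked by its change in the T2D model, which enters this interaction, so the p-value is no separate support.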
